A study of Mus musculus with 15 samples.

Results

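The plasminogen activator system was described here through 5 genes measured in primary mouse lung fibroblast cultures: the activators Plau and Plat, the receptor Plaur, and the inhibitors Serpine2 and Serpinb2. The genes were chosen by name, with earlier results of these data known, and each symbol matched 1 identifier among the 18078 genes of the files. RNA was sequenced from 15 libraries of cells of wild-type BALB/cJ mice, cultured from the lung and harvested at 20 h. Of the 5 groups of 3 libraries, 1 was untreated and 1 received IL-33 alone. The others received IL-33 together with IL-17A, with IL-13 or with both, the last called the triple combination. Every treated group contained IL-33, so the effects of IL-13 and IL-17A were measured only on top of it. The labels name no separate cultures, animals, doses or dates, so the p-values reflect how far these libraries spread, and that spread may be technical.

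Plasmin is a broad serine protease that dissolves fibrin, cleaves matrix proteins and activates latent growth factors. It is made from circulating plasminogen by urokinase (Plau) and tissue plasminogen activator (Plat), and the urokinase receptor Plaur holds urokinase at the cell surface. Serpins, which trap proteases by a suicide mechanism, limit both activators: protease nexin (Serpine2) also inhibits thrombin, and plasminogen activator inhibitor 2 (Serpinb2) is a largely intracellular serpin known from stimulated macrophages. In the lung the system is best known for its part in clearing fibrin after injury and in fibrosis.

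Across the groups, Plau, Plaur, Serpine2 and Serpinb2 were higher and Plat was lower in each cytokine condition than in untreated cultures. Serpinb2 changed most, from 3.91 TPM (a length-scaled measure of transcript abundance with a fixed total per library) in untreated cultures to 191.5 TPM in the triple combination, a ratio of means of 49.0. Plau rose 2.26-fold and Plaur 1.48-fold over the same span, Serpine2 reached 161% of its untreated mean, and Plat dropped to 54.8% of it. The Serpinb2 values with IL-13 added all lay above those with IL-17A added. Serpine2 rose when IL-17A was added, though its call on top of IL-33 was close to the threshold (limma, adjusted p = 0.0474). It had no called change when IL-13 was added, and the difference between these 2 effects was not tested. All libraries with IL-33 and IL-13 fell in the low mitochondrial set described below, and those with IL-33 alone did not. Within that comparison the set and IL-13 cannot be told apart.

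The cultures held more than fibroblast RNA. All 10 fibroblast markers looked at were in the files, with a median of 523 TPM and Col1a1 at 4658 TPM, and all 14 macrophage markers were there too, with a median of 343 TPM and Lyz2 at 9363 TPM. The summed macrophage markers ranged from 19748 to 20148 TPM in untreated libraries, 19239 to 19425 with IL-33, 19134 to 20356 with IL-17A, 18389 to 18600 with IL-13 and 17733 to 18609 in the triple combination. The summed fibroblast markers ranged from 11922 to 13380 TPM in untreated libraries and from 7817 to 8463 TPM in the triple combination. There, Dcn and Lum were called higher than in untreated (log2 changes of 1.31 and 0.65), and 7 of the 10 markers lower. Of the 14 macrophage markers, 3 were called higher and 8 lower in the same comparison. Of all tested genes, 12.6% were called higher and 30.1% lower. Endothelial markers summed to at most 7.69 TPM and epithelial markers to at most 2.95 TPM in any library.

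Genes of other marker lists moved with the treatments. Smooth muscle and pericyte markers summed to 210.2 to 214.9 TPM in untreated libraries, 112.2 to 120.9 with IL-33, 56.0 to 59.7 with IL-17A added, 68.9 to 71.5 with IL-13 added and 42.7 to 45.7 in the triple combination, and all 4 tested were called lower in each comparison with untreated. This order of the groups is also that of the group means of Plat. Of all tested genes, 8.28% (IL-33) to 35.1% (IL-33 with IL-13) were called lower in the comparisons with untreated. Mesothelial markers summed to 19.8 to 23.4 TPM in untreated libraries and 12.7 to 13.9 in the triple combination. In that comparison Upk3b and Upk1b were called lower (-1.05 and -0.25 on the log2 scale). Msln (-0.27) and Wt1 (0.22) were not called. The neutrophil marker S100a8 rose by 1.89 on the log2 scale with IL-33 and by 2.91 in the triple combination (limma, adjusted p = 7.8e-07 and 2.8e-09), and Mcpt8, a basophil protease, by 0.40 and 0.77 (adjusted p = 0.0024 and 3.0e-06). S100a8 was the only 1 of 6 neutrophil markers that could be tested, and Mcpt8 the only 1 of 5 mast cell and basophil markers. The cell type that carried each of the 5 transcripts was not measured, and in bulk RNA fewer cells of a type and less RNA per cell cannot be told apart. The part of these cell types in the results below was not tested.

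In 6 libraries the share of mitochondrially encoded transcripts was 3.50% to 3.87%, against 4.77% to 6.13% in the other 9. The 6 comprised the whole group given IL-13 on top of IL-33, replicates 2 and 3 of the group given IL-17A on top of IL-33, and 1 library (replicate 1) of the triple combination. "IL-13 replicate 1" and the like below name libraries of the double combinations by the cytokine added to IL-33. Because the set holds every library of 1 group, comparisons that use that group were also fitted with a term for the set. That term was not called for Plau, Plaur, Plat or Serpinb2, and for Serpine2 it was -0.21 on the log2 scale (limma, adjusted p = 0.0126). Only the group given IL-17A on top of IL-33 and the triple combination hold libraries both inside and outside the set. The term rests on them, so a term not called does not show that a gene is free of the set's effect. The term was called for 2262 of all 13887 tested genes. The estimated depth was 10524000 to 15083000 reads per library.

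The stretch of 250 bases before the RefSeq transcription start (build GRCm38.p6) is shown for Plaur, Serpinb2 and Serpine2, the 3 of the 5 genes found in the promoter table, as all 3 rose but by very different amounts. Serpinb2 has 2 starts there, and the stretch before the upstream one is printed. The Serpine2 start lies within the gene span given below, so its stretch is not upstream of the whole annotated gene. Capitals mark matches, on either strand, to 6 short motifs: AP-1 (TGANTCA), the cyclic AMP response element or CRE (TGACNTCA), NF-kB (GGG and CC set 5 bases apart), STAT6 (TTC and GAA set 4 bases apart), the GC box (GGGCGG) and the TATA box (TATAAA). Overlapping matches run together, as the NF-kB pattern does with GC boxes.
Plaur, chr7:24462233-24462482, plus strand: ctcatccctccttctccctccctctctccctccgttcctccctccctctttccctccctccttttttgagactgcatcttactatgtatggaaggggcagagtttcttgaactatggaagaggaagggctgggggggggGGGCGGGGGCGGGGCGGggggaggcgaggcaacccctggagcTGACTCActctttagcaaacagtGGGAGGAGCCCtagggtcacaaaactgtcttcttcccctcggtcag
Serpinb2, chr1:107511173-107511422, plus strand: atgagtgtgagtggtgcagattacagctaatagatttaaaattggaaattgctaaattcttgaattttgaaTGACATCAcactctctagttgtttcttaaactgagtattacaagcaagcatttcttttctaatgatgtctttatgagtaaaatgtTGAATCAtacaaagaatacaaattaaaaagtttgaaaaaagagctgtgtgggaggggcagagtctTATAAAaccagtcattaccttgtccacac
Serpine2, chr1:79858666-79858915, minus strand: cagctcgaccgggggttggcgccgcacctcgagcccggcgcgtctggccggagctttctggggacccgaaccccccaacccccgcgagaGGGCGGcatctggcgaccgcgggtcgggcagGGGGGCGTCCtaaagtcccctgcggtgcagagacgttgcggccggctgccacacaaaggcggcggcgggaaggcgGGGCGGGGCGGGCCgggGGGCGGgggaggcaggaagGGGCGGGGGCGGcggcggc

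The Serpinb2 stretch was AT-rich, with a GC content of 32.4% against a median of 52.4% over 32851 mouse promoters. With positions counted back from the start, it held a TATA box at -29 to -24, an AP-1 match (TGAATCA) at -94 to -88 and a CRE match (TGACATCA) at -179 to -172. Counted from the other start, whose stretch (chr1:107511260-107511509, GC content 38.4%) overlaps this one, the TATA box was at -116 to -111 and the AP-1 match at -181 to -175, and the CRE match fell outside. The Plaur stretch held an AP-1 match (TGACTCA) at -69 to -63, 3 GC boxes and an NF-kB match at -46 to -37 that overlaps a second one on the other strand. The Serpine2 stretch was the most GC-rich of the 3, at 78.8%, and held 6 GC boxes and 2 NF-kB matches. Of all promoters in the table, 6.749% held the AP-1 pattern, 7.488% the CRE pattern, 12.37% the TATA box, 32.74% the GC box, 45.8% the loose NF-kB pattern and 5.854% the STAT6 pattern, which was in none of the 3 stretches. These matches describe the letters of the windows and do not show that a factor binds there.

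Urokinase was the most abundant of the 5 transcripts. Plau (ENSMUSG00000021822, chr14:20836660-20843385, mm10) was at 535, 550 and 562 TPM in the untreated libraries and at 789, 801 and 828 TPM with IL-33. Its values were 956, 1018 and 950 TPM with IL-33 and IL-17A, 1028, 1013 and 997 TPM with IL-33 and IL-13, and 1176, 1304 and 1238 TPM in the triple combination. The ranges of the 2 double combinations overlapped, and no other groups next to each other in this order did, so Plau stood in 4 separate steps. The group means were 549 ± 13.3, 806 ± 19.7, 974 ± 37.6, 1013 ± 15.7 and 1239 ± 63.9 TPM (SD, n = 3).

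**Figure D1:**
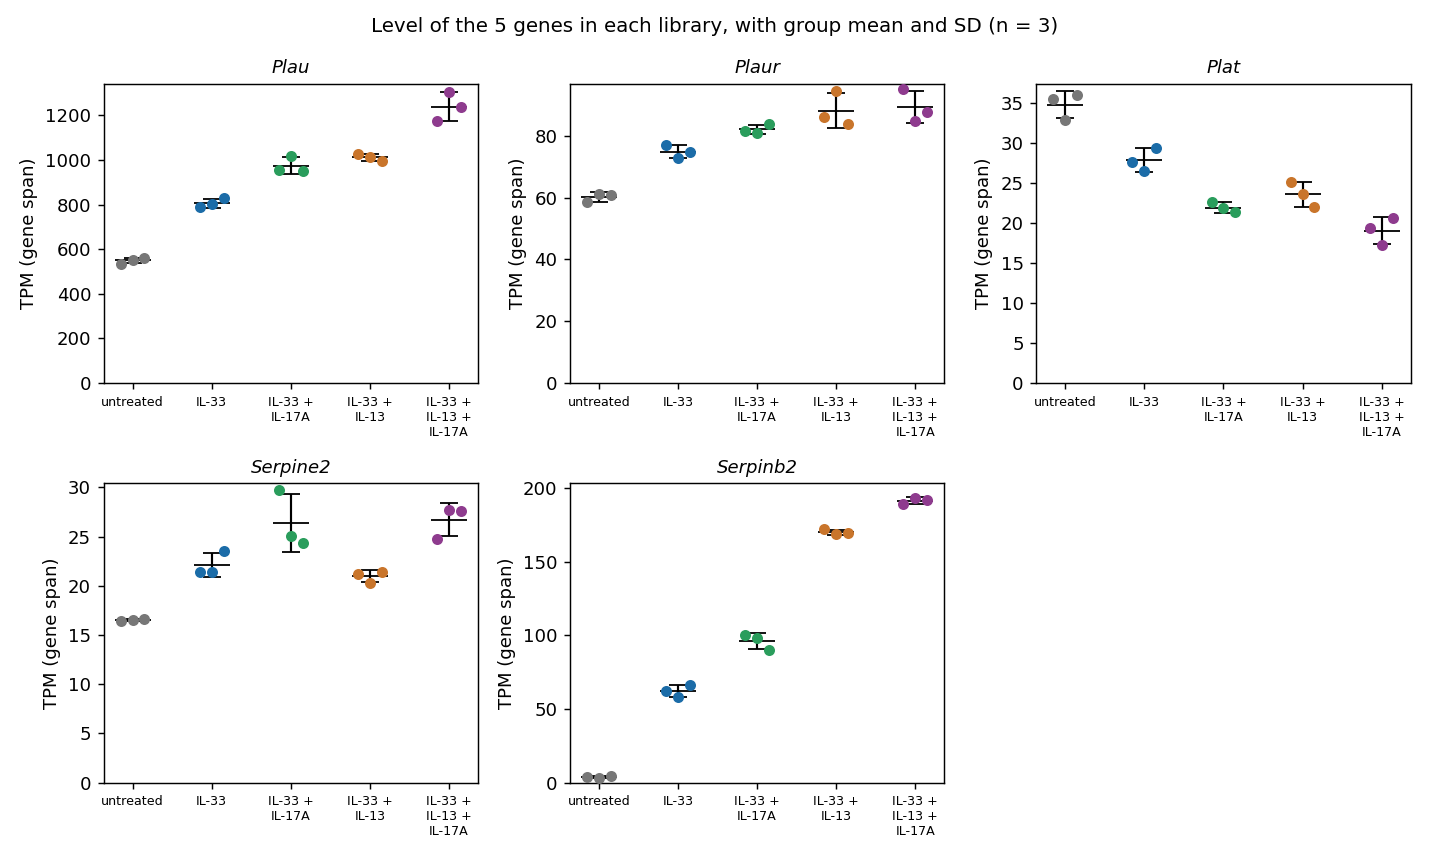
TPM per library (points) of the 5 genes in the 5 groups, with the mean (long bar) and SD (error bar) of 3 libraries. Plau, Plaur and Serpinb2 climb from untreated to the triple combination, Plat falls, and Serpine2 is highest in the 2 groups with IL-17A.

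Plau rose with IL-33 by 0.55 ± 0.04 (log2 change ± SE, limma, adjusted p = 1.1e-06). Adding IL-17A raised it by 0.27 ± 0.04 (adjusted p = 8.7e-04), and adding IL-13 raised it by 0.33 ± 0.04 (adjusted p = 1.1e-04). On top of the other cytokine the changes were about the same size: 0.29 for IL-17A (adjusted p = 8.7e-04) and 0.35 for IL-13 (adjusted p = 9.9e-05). The interaction, which is the departure from the sum of both changes on the log2 scale, was 0.02 with a 95% confidence interval of -0.11 to 0.14. The call for IL-17A on top of IL-33 was lost outside the low mitochondrial set, which leaves 1 library with IL-17A (0.25, adjusted p = 0.0512). In TPM, IL-17A added 168 ± 24.5 to IL-33 alone and 227 ± 38.0 (SE) in the presence of IL-13.

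Tissue plasminogen activator went the other way. Plat (ENSMUSG00000031538, chr8:22757727-22782844) was at 35.5, 32.9 and 36.0 TPM in untreated libraries and 27.7, 26.6 and 29.4 TPM with IL-33. It was at 22.6, 21.9 and 21.4 TPM with IL-33 and IL-17A, 25.1, 23.7 and 22.0 TPM with IL-33 and IL-13, and 19.4, 17.2 and 20.6 TPM in the triple combination. Every treated library was below every untreated one, the double combinations overlapped each other, and the triple combination lay below all other libraries. Plat fell with IL-33 by 0.31 ± 0.07 on the log2 scale (limma, adjusted p = 0.00819) and in the triple combination by 0.84 (adjusted p = 7.3e-07).

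IL-17A lowered Plat by a log2 change of -0.33 on top of IL-33 (adjusted p = 0.00827) and by -0.30 on top of IL-33 with IL-13 (adjusted p = 0.0213). IL-13 lowered it by -0.23 on top of IL-33 (adjusted p = 0.0214), while on top of IL-33 with IL-17A the value was -0.20, with an interval of -0.34 to -0.05, and did not pass (adjusted p = 0.0721). These added changes were near the limit of the test. The call for IL-13 on top of IL-33 was lost with the set term (adjusted p = 0.222), with median-ratio scaling (a change of -0.14, adjusted p = 0.118), with limma-voom (0.0691), and without IL-33 replicate 3 (0.084) or IL-13 replicate 2 (0.0546) or 3 (0.0841). The calls for IL-17A were lost on top of IL-33 outside the low mitochondrial set (adjusted p = 0.311), and on top of IL-33 with IL-13 with the set term (0.0841), in a fit of the compared groups only (0.109), or without IL-13 replicate 1 (0.0931) or 2 (0.0781) or triple combination replicate 2 (0.0898).

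The 2 activators therefore moved apart. Counted per exon length, the scale used here whenever levels of different genes are compared, Plau was 10.6 to 11.8 times Plat in untreated libraries. The ratio was 19.8 to 21.3 with IL-33, 29.8 to 32.9 with IL-17A added, 28.9 to 32.0 with IL-13 added, and 42.4 to 53.4 in the triple combination. Only the ranges of the double combinations overlapped. The marker levels given above are in TPM as deposited, not on this scale.

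The urokinase receptor changed less than its ligand. Plaur (ENSMUSG00000046223, chr7:24462484-24475968) was at 58.4, 61.3 and 60.8 TPM in untreated libraries and 76.9, 72.6 and 74.9 TPM with IL-33. It was at 81.5, 81.0 and 83.7 TPM with IL-33 and IL-17A, 86.0, 94.6 and 83.9 TPM with IL-33 and IL-13, and 95.0, 84.9 and 87.8 TPM in the triple combination. All treated libraries were above all untreated ones, and the groups with IL-13 overlapped each other. The lowest library with IL-13, at 83.9 TPM, was only just above the highest with IL-17A, at 83.7 TPM.

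Plaur rose with IL-33 by 0.31 ± 0.05 on the log2 scale (limma, adjusted p = 0.00112), and by 0.56 in the triple combination (adjusted p = 2.0e-06). IL-13 raised it by 0.23 ± 0.05 on top of IL-33 (adjusted p = 0.00502), a call that was lost with the set term (adjusted p = 0.191). For IL-17A on top of IL-33 the value was 0.13, with an interval of 0.02 to 0.24, and did not pass (adjusted p = 0.126; 0.038 with limma-voom). Once IL-13 was present, IL-17A gave 0.02 with an interval of -0.09 to 0.13. The ratio of Plau to Plaur, per exon length, was 4.95 to 5.09 in untreated libraries and 6.82 to 8.47 in the triple combination, so the transcript of the ligand grew more than that of its receptor.

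Protease nexin was highest in the groups given IL-17A. Serpine2 (ENSMUSG00000026249, chr1:79794197-79861180) was at 16.5, 16.6 and 16.6 TPM in untreated libraries and 21.4, 21.4 and 23.5 TPM with IL-33. With IL-33 and IL-13 it was at 21.2, 20.3 and 21.4 TPM, which overlaps IL-33 alone. With IL-17A it was at 29.7, 25.1 and 24.4 TPM, and in the triple combination at 24.8, 27.7 and 27.6 TPM, which overlap each other and lie above the groups without IL-17A.

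Serpine2 rose with IL-33 by 0.39 ± 0.07 on the log2 scale (limma, adjusted p = 0.0019). IL-17A raised it by 0.24 ± 0.07 on top of IL-33 (adjusted p = 0.0474) and by 0.33 ± 0.07 on top of IL-33 with IL-13 (adjusted p = 0.0127). For IL-13 the values were -0.07 with an interval of -0.22 to 0.08 on top of IL-33 and 0.02 with an interval of -0.13 to 0.17 on top of IL-33 with IL-17A, and neither passed (adjusted p = 0.459 and 0.890). With the set term, which was called for Serpine2, the value for IL-13 on top of IL-33 was 0.13 and did not pass. The first IL-17A call was close to the threshold: it was lost without IL-33 replicate 1 (adjusted p = 0.123) or 2 (0.148), without IL-17A replicate 2 (0.0673), and without IL-17A replicate 1, the highest library, where the change was 0.16 (adjusted p = 0.0666). It was also lost in a fit of the compared groups only (adjusted p = 0.223), with no filter (0.0579) and with no trend (0.0535). Over 16 alternative settings this change ranged from 0.16 to 0.41 and was called in 9. The highest value came from outside the low mitochondrial set, which leaves 1 library with IL-17A, the highest. The second IL-17A call was lost with the set term (a change of 0.20, adjusted p = 0.0536). Leaving out IL-13 replicate 2 (0.0608) or triple combination replicate 2 (0.0599) or 3 (0.061) also lost it.

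Plasminogen activator inhibitor 2 showed the widest range. Serpinb2 (ENSMUSG00000062345, chr1:107511423-107535478) was at 3.84, 3.49 and 4.41 TPM in untreated libraries, values that rest on 74 to 100 estimated reads per library. It was at 62.1, 58.3 and 66.7 TPM with IL-33, 100.3, 98.6 and 89.8 TPM with IL-33 and IL-17A, 171.9, 168.9 and 169.4 TPM with IL-33 and IL-13, and 189.1, 193.4 and 192.1 TPM in the triple combination. No 2 groups overlapped, and the order was untreated, IL-33, IL-17A added, IL-13 added, both added. Against untreated the ratios of the group means were 15.9, 24.6, 43.5 and 49.0.

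IL-33 raised Serpinb2 by 3.69 ± 0.07 on the log2 scale (limma, adjusted p = 1.9e-12), the rank 9 change in size of 13887 genes tested. In the triple combination the change was 5.30 (adjusted p = 1.1e-14), at rank 12. These sizes depend on the scale, because the untreated level is low: IL-33 gave 2.92 with a pseudocount of 5, 3.96 with 0.1 and 4.04 with limma-voom on estimated reads, and the triple combination gave 4.46, 5.58 and 5.73, all called. IL-13 added 1.44 ± 0.07 to IL-33 (adjusted p = 2.6e-08) and 0.99 ± 0.07 to IL-33 with IL-17A (adjusted p = 9.5e-07). IL-17A added 0.62 ± 0.07 to IL-33 (adjusted p = 7.5e-05). On top of IL-33 with IL-13, IL-17A gave 0.17 with an interval of 0.03 to 0.32 and did not pass (adjusted p = 0.148), although the 3 libraries of the triple combination lay above the 3 without IL-17A. It passed in a fit of the compared groups only (adjusted p = 0.0321) and with limma-voom on estimated reads (0.0145).

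For Serpinb2 the interaction of both cytokines was -0.45 ± 0.09 on the log2 scale, with an interval of -0.65 to -0.24, and did not pass in limma (adjusted p = 0.0639, 4.6e-04 before adjustment). The combined value was thus below the sum of both log2 changes by an amount that the adjusted test did not call. Over 21 alternative settings the interaction ranged from -0.53 to -0.40 and was called in 7, with adjusted p from 2.04e-04 to 0.591. In TPM, IL-17A added 33.9 ± 4.06 to IL-33 alone and 21.4 ± 1.56 (SE) with IL-13 present, and IL-13 added 107.8 ± 2.60 and 95.3 ± 3.49, a departure of -12.5 ± 4.35 TPM from the sum. The other 4 genes had interactions between -0.12 (Plaur) and 0.09 (Serpine2), none called. Of all tested genes, 0.338% were called for this interaction (0.158% higher, 0.18% lower), and of the 5 genes 0 were, with 1 at an unadjusted p under 0.05 and 1 called by limma-voom on estimated reads.

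**Figure D2:**
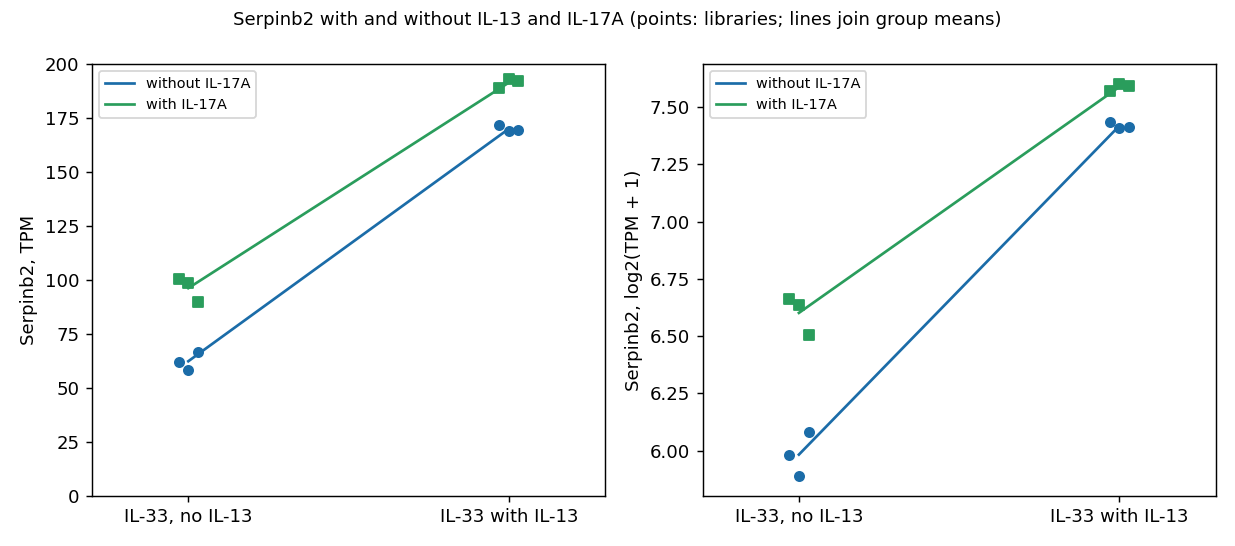
Serpinb2 in the 12 libraries that received IL-33, by IL-13 (x axis) and IL-17A (line and marker), as TPM on the left and as log2(TPM + 1) on the right, where the axis does not start at 0. The lines draw together slightly in TPM and more on the log2 scale, where the interaction was -0.45.

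Over the 5 genes, all passed the test in each comparison with untreated cultures, 4 higher and Plat lower. With IL-33 alone, 14.2% of the 13887 tested genes were called in either direction, 5.92% higher and 8.28% lower. The shares were 37.7% for IL-33 plus IL-17A (10.7% higher, 27% lower), 49.6% for IL-33 plus IL-13 (14.5% higher, 35.1% lower) and 42.7% for the triple combination (12.6% higher, 30.1% lower), so a call was commonplace there. The split depends on scaling: with median-ratio scaling the calls were 1109 higher and 853 lower for IL-33 (822 and 1150 as reported), 2465 and 2182 for IL-33 plus IL-17A (1486 and 3743), 3382 and 3027 for IL-33 plus IL-13 (2017 and 4870), and 2839 and 2573 for the triple combination (1755 and 4178). Outside the low mitochondrial set, IL-33 plus IL-17A had 2139 calls in place of 5229, and with the set term IL-33 plus IL-13 had 3549 in place of 6887.

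Among the added cytokines, IL-17A on top of IL-33 changed 4 of the 5, with 3 higher, Plat lower and Plaur not past the test, where 9.76% of all genes were called (3.54% higher, 6.22% lower). IL-13 on top of IL-33 changed 4, with 3 higher, Plat lower and Serpine2 not past the test, where 32.4% were called (10% higher, 22.4% lower). With the set term, Plau and Serpinb2 stayed called in the latter comparison. When IL-13 was already present, IL-17A changed 3, with Plau and Serpine2 higher and Plat lower, where 7.45% were called (3.4% higher, 4.05% lower). When IL-17A was already present, IL-13 changed 2, Plau and Serpinb2, both higher, where 15.8% were called (6.7% higher, 9.14% lower). Median-ratio scaling gave 715 higher and 628 lower for IL-17A on top of IL-33 (491 and 864 as reported) and 2306 and 2049 for IL-13 on top of IL-33 (1395 and 3111).

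**Figure D3:**
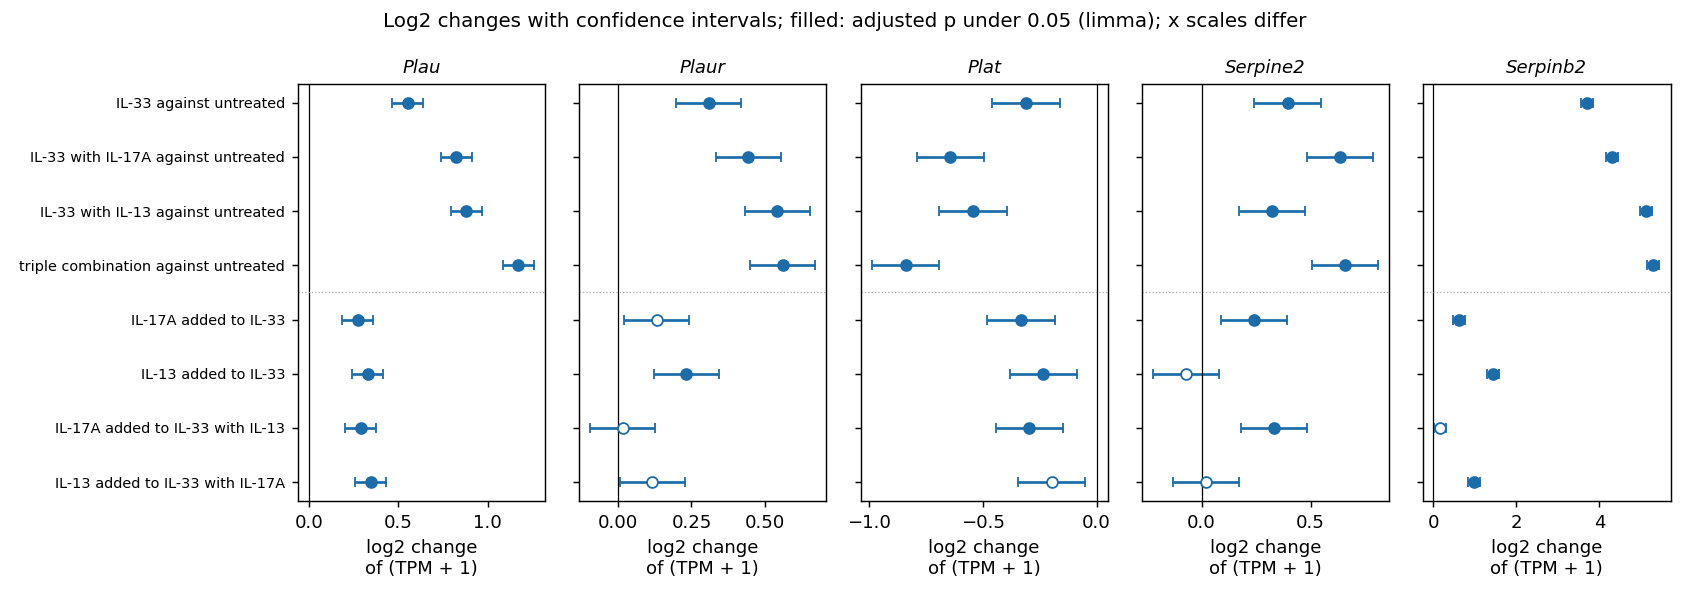
Log2 change of (TPM + 1), with its 95% confidence interval, of each gene in the 8 comparisons between groups, with the 4 comparisons against untreated above the dotted line and added cytokines below it. Filled points passed an adjusted p of 0.05 in limma, and the x scale differs between panels. Plau is called in all 8, and Serpine2 is called below the line where IL-17A was added.

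The median of all tested genes was below 0 in the comparisons with untreated, at -0.05, -0.09, -0.12 and -0.10 on the log2 scale for IL-33, IL-17A added, IL-13 added and the triple combination. With median-ratio scaling, which brings these medians close to 0, the triple combination gave 1.31 for Plau, 0.69 for Plaur, -0.71 for Plat, 0.78 for Serpine2 and 5.41 for Serpinb2. All 5 genes were called in these 4 comparisons under every alternative run.

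The 5 transcripts also differed in level. Per exon length, the untreated means were 507 for Plau, 101 for Plaur, 45.6 for Plat, 43.5 for Serpine2 and 13.0 for Serpinb2, in exon-scaled TPM (n = 3). In the triple combination they were 1180, 154, 25.7, 72.4 and 657, so Serpinb2 passed from the lowest of the 5 to the second highest. The ratio of Serpinb2 to Serpine2 went from 0.267 to 0.336 in untreated libraries to 3.45 to 3.68 with IL-33, 4.27 to 4.98 with IL-17A added, a mean of 10.3 ± 0.260 (SD, n = 3) with IL-13 added, and 8.81 to 9.66 in the triple combination, below every library of the preceding group.

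**Figure D4:**
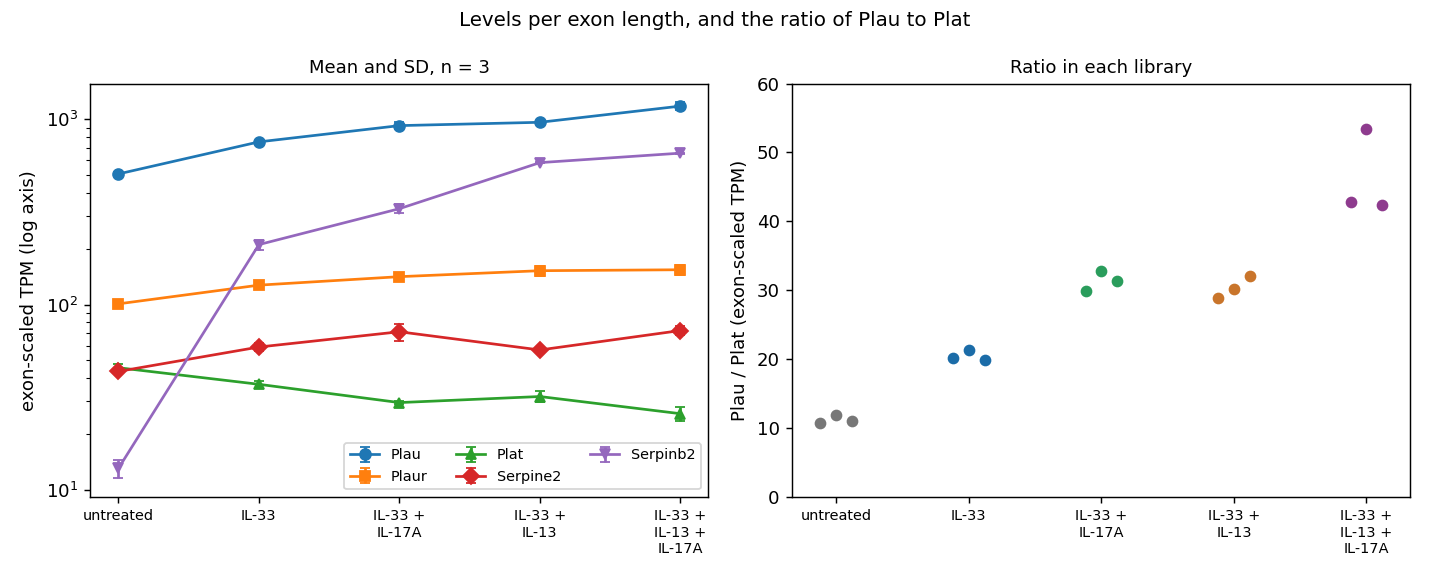
Left, exon-scaled TPM (log axis) of the 5 genes, as mean and SD of 3 libraries per group. Right, the ratio of Plau to Plat in each library, which was 10.6 to 11.8 in untreated cultures and 42.4 to 53.4 in the triple combination.

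These are ratios of transcripts, and neither protein nor protease activity was measured.

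Of 18 other genes of the plasminogen system, 13 were in the files and 10 passed the filter on low values. The list covers plasminogen receptors, endocytic receptors that clear activator and inhibitor complexes, and other inhibitors. Plasminogen itself (Plg) was on the list but not in the files, so it could not be analysed. With IL-33 alone, 2 of the 10 rose and none fell: Thbd, which encodes the thrombin cofactor thrombomodulin (0.29), and Eno1, an enolase that can also bind plasminogen (0.14). In the triple combination 1 rose and 5 fell, among them Vldlr, a receptor that takes up urokinase and inhibitor complexes (-0.93), Mrc2, a collagen uptake receptor that associates with Plaur (-0.67), and Lrp1, the main endocytic receptor for these complexes (-0.43). The list's median in the triple combination was -0.12, beside -0.10 for all genes. Of all tested genes, 5.92% were called higher and 8.28% lower with IL-33, and 12.6% and 30.1% in the triple combination. The genes of this list and of the lists below were fitted only as reported, without the alternative settings or the set term.

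IL-17A on top of IL-33 raised 0 and lowered 2 of these 10: Vldlr (-0.40) and Anxa2, an annexin that binds plasminogen and Plat at the cell surface (-0.21). IL-13 on top of IL-33 raised 0 and lowered 4, led by Vldlr (-0.61) and Lrp1 (-0.41). On top of the other cytokine, IL-17A raised 0 and lowered 2, with Mrc2 at -0.34, and IL-13 raised 1 and lowered 5, with Mrc2 at -0.44. Against untreated, IL-33 with IL-17A raised 2 and lowered 3, and IL-33 with IL-13 raised 1 and lowered 4. None of the 10 was called for the interaction, where 0.338% of all genes were. Of all tested genes, IL-17A on top of IL-33 raised 3.54% and lowered 6.22%, and IL-13 raised 10% and lowered 22.4%. On top of the other cytokine, the shares were 3.4% and 4.05% for IL-17A and 6.7% and 9.14% for IL-13. Against untreated, they were 10.7% and 27% for IL-33 with IL-17A, and 14.5% and 35.1% for IL-33 with IL-13.

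Among substrates and growth factors that plasminogen activators or plasmin release, 2 of 7 could be tested. Hgf, a growth factor activated by proteolysis, was higher in the triple combination (0.52, adjusted p = 5.2e-04) and Pdgfc, a growth factor that Plat can activate, was lower (-0.24, adjusted p = 0.00241), both in limma. With IL-33 alone neither was called, at 0.27 and -0.12.

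Clotting genes, whose product fibrin is the target of plasmin, split in direction. Of 11 tested, IL-33 raised 5 and lowered 5, and the triple combination raised 4 and lowered 5. Of all tested genes, the shares were 5.92% higher and 8.28% lower with IL-33, and 12.6% and 30.1% in the triple combination. In the triple combination the largest changes were in Procr, the endothelial protein C receptor (3.38), Tfpi2, an inhibitor of plasmin and other serine proteases (3.03), and F3, the tissue factor that starts clotting (-1.66). IL-13 on top of IL-33 raised Tfpi2 by 2.44 and lowered F3 by a change of -1.36, while IL-17A on top of IL-33 lowered F3 by a change of -0.48. IL-33 raised Procr by 1.46, and IL-17A and IL-13 raised it further by 0.99 and 1.07.

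Other serpins did not share 1 direction. Of 12 tested, IL-33 raised 1, Serpina3g (2.46), and lowered 5, including Serpinb1a (-0.57) and Serpinb9 (-0.54), intracellular inhibitors of leukocyte proteases. IL-13 on top of IL-33 raised 6 and lowered 2, with Serpina3g at 2.78, Serpina3n at 1.84 and Serpinb1a at 1.41. IL-17A on top of IL-33 raised Serpina3g (0.91) and lowered Serpinb1a (-0.45). Of all tested genes, 5.92% were called higher and 8.28% lower with IL-33. For IL-13 on top of IL-33 the shares were 10% and 22.4%, and for IL-17A 3.54% and 6.22%. Serpina3g has near-identical copies, and its values are uncertain because the treatment of reads that match several genes is not given in the sources used here.

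Serpinb2 lies in a cluster of clade B serpins on chromosome 1, with 3 neighbours in the files. Within 250 kb, Serpinb8 averaged 5.19 TPM in untreated and 3.81 TPM in triple combination libraries, a fall of 0.37 on the log2 scale (limma, adjusted p = 0.00905). Serpinb7 was at most 0.110 TPM in any library, and Serpinb10, whose annotated span overlaps Serpinb2 by 6476 bases on the same strand, was at most 0.218 TPM, both too low to read a course from. No gene annotated in GENCODE vM21 overlapped any of the other 4.

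Across the 15 libraries the 5 genes varied together, with Plat inverted. Pearson's r of log2(TPM + 1) was 0.96 between Plau and Serpinb2, 0.937 between Plau and Plaur, -0.953 between Plau and Plat, and 0.73 between Plaur and Serpine2, the lowest in size. These values describe 15 libraries in 5 groups that share treatments, and they carry no test.

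The genes most like each of them over the same 15 libraries were found by the same measure. For Serpinb2 they were Ccl6 (0.994), Angptl4, Ccl9, Osm and Tfec (0.990), of which Ccl6 and Ccl9 are chemokines and Osm is the cytokine oncostatin M. For Plau they were Selp (0.994), Pf4, Procr, Arrdc4 and Ttc39c (0.987). For Plaur they were H6pd (0.978), Glrx, Ptgir, Cxcl3 and Angptl4 (0.972), and Angptl4 was thus near both Plaur and Serpinb2. For Plat they were Flot1 (0.982), Cavin3, Csrp1, Hspb7 and Mrvi1 (0.978), and for Serpine2 Fmo2 (0.978), Dnajb6, Twist2, Ccbe1 and Gdnf (0.968).

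The genes near Serpine2 showed its split between IL-17A and IL-13 in their own means. Twist2, a mesenchymal transcription factor, averaged 13.7 TPM with IL-33, 22.1 TPM with IL-17A added and 11.7 TPM with IL-13 added. Gdnf, a neurotrophic factor, averaged 8.82, 12.9 and 7.20 TPM in the same groups. Those near Plat fell stepwise: Cavin3, a caveolar coat protein, averaged 388.9 TPM in untreated, 287.9 TPM with IL-33 and 140.2 TPM in triple combination libraries. These genes were picked for their likeness, so their values are a description.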

How the data were processed

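The deposited values are TPM for 18078 genes in each of 15 libraries. The authors aligned reads with HISAT2 to mm10, per the submitters' processing notes, and used Ensembl and Havana gene models, per the file headers. Not given in the sources used here are the tool that made TPM and how it treated strand and reads matching several genes.

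The deposited TPM appear to be scaled by gene span, introns included, which no source states and which the exon-scaled values and ratios between genes rest on. Multiplied by span in kb, 90.6% to 91.8% of the 3948 to 4139 low values checked per library (0.5 to 10.5 reads) were whole multiples, within 0.03, of 1 step per library, the worth of 1 read. On a span of 1 kb, 1 read was worth 0.732 to 1.14 TPM, and the libraries held an estimated 10524000 to 15083000 reads. Reads recovered this way, divided by exon length from GENCODE vM21 and scaled again, gave exon-scaled TPM. Of the identifiers, 18062 were in vM21.

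Groups came from the treatment label, and replicate numbers are only names. limma 3.58.1 (R 4.3.3), with trend and robust options, was fitted to log2(TPM + 1) of all 15 libraries, for the 13887 genes that reached 1 TPM in 3 or more libraries (4191 did not), and all 5 genes were among them. This scale understates changes of low genes. Benjamini-Hochberg adjustment ran over all tested genes in each of 9 comparisons, and calls were made at 0.05. The fitting script was tested on simulated data. The genes and lists were chosen with earlier results of these data known. Named by rule were the 5 genes, at most 3 called genes of largest change per list and comparison, and the 5 genes most correlated with each. The neighbours of Serpinb2 were singled out after their values were seen. An item of the plasminogen list is not reported here. Alternatives were pseudocounts of 0.1 and 5, no filter or 10 TPM, only the compared groups, no trend, median-ratio scaling, a term for the low mitochondrial set or its removal, and leaving out each library. limma-voom on estimated reads and exon-length scaling were added after seeing the data. Files were read with Python 3.11.15 and pandas 2.3.3.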

Additional observations from a re-analysis of the deposited data

How the results depend on the processing

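Of 146 counts of called genes among the 5 under the alternatives, 134 stayed within 1.5 times the reported count. The 4 comparisons with untreated gave 5 of 5 throughout. Fewer libraries or added terms gave 2 for IL-17A on top of IL-33 with the low mitochondrial set left out, 2 for IL-13 on top of IL-33 with a term for the set, and 1 for IL-17A on top of IL-33 with IL-13 with that term. For the interaction the count was 1, Serpinb2, with a pseudocount of 5, a filter at 10 TPM, only the compared groups, median-ratio scaling, or limma-voom on estimated reads. Leaving out 1 library gave 3 to 4 for IL-17A or IL-13 on top of IL-33, 1 to 3 for IL-17A on top of IL-33 with IL-13 (1 without replicate 2 with IL-13 or replicate 2 of the triple combination), 2 to 3 for IL-13 on top of IL-33 with IL-17A, and 0 to 1 for the interaction (1 without replicate 1 with IL-17A or replicate 1 of the triple combination). The cause was not tested.

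Directions turned only for changes that were not called, the largest as reported being the Serpine2 interaction at 0.0917. For IL-13 on top of IL-33, Serpine2 was 0.0188 with median-ratio scaling, 0.1341 with the set term and 0.0101 with voom. For IL-13 on top of IL-33 with IL-17A, Serpine2 was -0.0476 with the set term, -0.0999 outside the set, and -0.0320 to 0.1065 with 1 library left out. For IL-17A on top of IL-33 with IL-13, Plaur was -0.0003 with median-ratio scaling and -0.0279 to 0.0687 with 1 library left out. The interaction of Plau was -0.0653 with median-ratio scaling, -0.0297 with the set term, -0.0497 with voom and -0.0201 to 0.0542 with 1 library left out. That of Plat was -0.0431 with median-ratio scaling, -0.0290 with voom and -0.0188 to 0.1042 with 1 library left out, and that of Serpine2 was -0.1817 with the set term. The cause was not tested. Comparisons that use IL-33 with IL-13 could not be run outside the set, which holds all its libraries. Over all tested genes, calls with the set term were 3452 in place of 5229 for IL-33 plus IL-17A, 1420 in place of 4506 for IL-13 on top of IL-33 and 566 in place of 1034 for IL-17A on top of IL-33 plus IL-13, and outside the set 316 in place of 1355 for IL-17A on top of IL-33 and 839 in place of 2199 for IL-13 on top of IL-33 plus IL-17A. No paired analysis was possible because the labels give no replicate numbers.

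Groups of 3 libraries, and 74 to 100 estimated reads on Serpinb2 in each untreated library, limit the precision of its changes from untreated.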
